A study of Mus musculus with 2 samples.

Results

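The genes described here encode the interferon-inducible GTPases of 2 families, the guanylate-binding proteins (GBPs) and the immunity-related GTPases (IRGs). The 10 genes were *Gbp2*, *Gbp3*, *Gbp4*, *Gbp5*, *Gbp6*, *Gbp7*, *Iigp1*, *Igtp*, *Irgm1* and *Irgm2*. They were found by their gene name among the probes that are not controls and gave 15 of 55681 distinct probes and 24 of 59305 spots per array. By their brightest probe, all 10 passed the scanner's test for a signal well above background on both arrays; 17209 genes passed it on 1 array or both.

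Long-term hematopoietic stem cells (LT-HSCs) are the rare bone marrow cells that renew themselves and give rise to all blood cells. They were sorted from C57BL/6J mice at 2 years of age, and their RNA was hybridized to Agilent arrays with 1 dye, 1 array per genotype, to ask how loss of the stress kinase p38α affects gene expression in old HSCs. The p38αΔ/Δ mice were CAG-CreERT2:p38α fl/fl animals given tamoxifen (TAM) about 1 year before analysis. The p38α+/+ controls were TAM-injected p38α fl/fl mice of the same age without the Cre transgene, so that both groups carried the floxed allele and received TAM, whereas only the p38αΔ/Δ group carried the Cre. The CAG promoter is active in most tissues, so the deletion is not restricted to blood cells. The sample labels give the gate as CD150+CD48-Flt3-CD34- LSK (lineage-Sca-1+c-*Kit*+), the methods add CD41-, and the design description names CD34-Flt3- LSK. The number and the sex of the mice behind each array are not given in the sources used here. With 1 array per genotype, no spread between mice can be given, no difference can be tested, and genotype, mice and array cannot be told apart.

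Interferons are cytokines of the antiviral and antibacterial response. Type II interferon (interferon γ) signals through *Jak1* and *Jak2*, and type I interferons through *Jak1* and *Tyk2* to a complex that holds *Stat2* and *Irf9*; both routes induce the GBPs and IRGs. GBPs are large GTPases that assemble on the surface of bacteria and on the vacuoles that hold parasites, and can open them to the inflammasome, a protein complex that activates caspase-1. Among the IRGs, *Irgm1*, *Irgm2* and *Igtp* (also called Irgm3) are regulators that sit on the cell's own membranes, whereas *Iigp1* (Irga6) is an effector that loads onto the foreign vacuole. HSCs carry interferon receptors and answer interferons by leaving quiescence, and loss of *Irgm1* is known to disturb their quiescence.

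Both interferon routes end at short DNA motifs before the start of their target genes, and the member promoters are shown for that reason. The interferon-stimulated response element (ISRE) was searched as GAAANNGAAA and the γ-activated sequence (GAS) as TTCNNNGAA, both strands, in the 250 bases before each RefSeq start of build GRCm38.p6; adjacent ISRE matches may overlap. Windows of 7 of the 10 genes were read, those other than *Gbp4*, *Gbp6* and *Iigp1*. All 7 genes held an ISRE match, in 7 of their 8 windows, compared with 978 of all 32851 windows (2.98%). GAS matches lay in the windows of 4 genes, *Gbp5*, *Gbp7*, *Igtp* and *Irgm2*, compared with 2306 of all windows (7.02%). A match describes letters and is not a measured site. The bases just before the start are printed 5′ to 3′ on the gene's strand with the matches in capitals, 120 bases for each gene and 170 for *Gbp5*, whose other GAS match, at -245, lies outside them.
Gbp2, chr3:142620543-142620662, plus strand: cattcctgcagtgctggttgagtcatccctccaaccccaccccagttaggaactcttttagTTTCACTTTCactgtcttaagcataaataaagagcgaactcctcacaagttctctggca
Gbp3, chr3:142559924-142560043, plus strand: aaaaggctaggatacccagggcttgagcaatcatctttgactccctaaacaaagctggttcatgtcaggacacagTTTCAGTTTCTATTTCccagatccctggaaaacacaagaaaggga
Gbp5, chr3:142496764-142496933, plus strand: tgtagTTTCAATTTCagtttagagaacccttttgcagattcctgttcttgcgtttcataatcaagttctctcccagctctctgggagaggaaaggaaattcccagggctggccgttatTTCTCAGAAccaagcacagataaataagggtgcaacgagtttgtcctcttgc
Gbp7, chr3:142530216-142530335, plus strand: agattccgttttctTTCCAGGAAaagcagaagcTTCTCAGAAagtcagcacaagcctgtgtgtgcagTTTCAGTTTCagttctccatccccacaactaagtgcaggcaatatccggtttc
Igtp, chr11:58199436-58199555, plus strand: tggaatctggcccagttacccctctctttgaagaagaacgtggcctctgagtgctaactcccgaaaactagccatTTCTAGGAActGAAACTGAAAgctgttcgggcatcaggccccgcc
Irgm1, chr11:48871421-48871540, minus strand: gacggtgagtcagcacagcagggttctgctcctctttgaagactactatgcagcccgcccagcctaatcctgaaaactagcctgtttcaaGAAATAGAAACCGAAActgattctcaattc
Irgm2, chr11:58214857-58214976, plus strand: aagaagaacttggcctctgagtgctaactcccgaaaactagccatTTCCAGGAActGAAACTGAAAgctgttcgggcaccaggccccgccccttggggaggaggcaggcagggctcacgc

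In *Gbp2*, *Gbp3*, *Gbp5* and *Gbp7* the ISRE stood on the opposite strand and is read as its reverse complement in the lines above. It began 59, 45, 165 and 53 bases before the start, respectively. *Gbp3* and *Irgm1* each held a pair of overlapping ISRE matches, the first beginning 45 and 30 bases before the start. In *Igtp* and *Irgm2* the ISRE followed closely on a GAS match, as it also did in the related genes *Tgtp1* and *Tgtp2*, which are not members. The windows of *Igtp* and *Irgm2* shared a run of 55 identical bases, and no other pair of member windows shared more than 13. *Gbp5* had the ISRE match farthest from its start among the 7 genes.

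**Figure D1:**
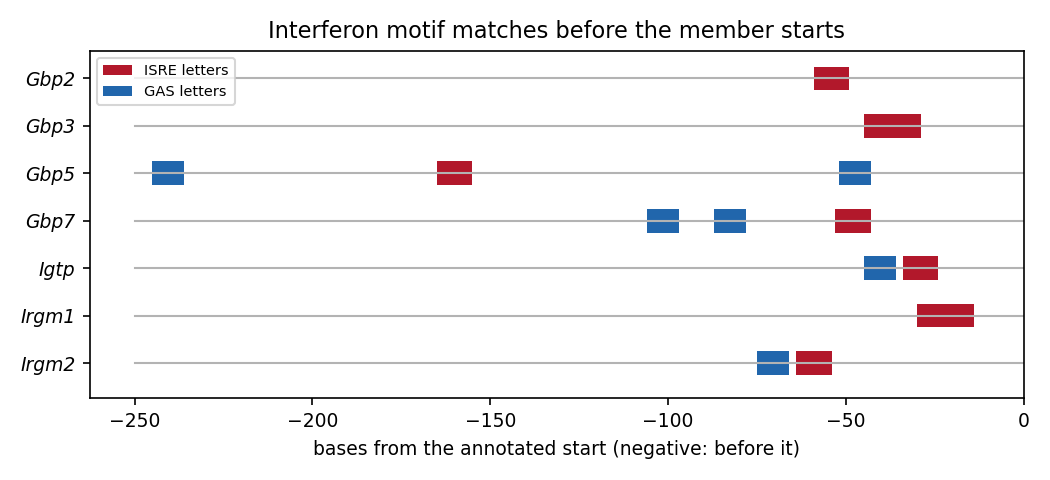
Positions of ISRE and GAS matches in the 250 bases before the start of the 7 members with a RefSeq window, in bases from the start; boxes are matches on either strand and grey lines the windows (for *Gbp3* the window with matches). Every line carries an ISRE box, and that of *Gbp5*, at -165, lies farthest from the start.

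Levels are given as the log2 of the scanner signal minus the array's own 75th percentile over probes, so that a level of 0 is that percentile and a difference of 1 is 2-fold. Levels of different probes are not set against each other, because probes differ in how strongly they bind. Differences are the array labelled p38αΔ/Δ minus the p38α+/+ array. The scanner's own error was about 0.14 for a level and 0.20 for a difference on bright probes, and was larger on dim ones. For a difference it was, for example, 0.27 for *Irf7*, 0.28 for *Nlrc4* and 0.30 for *Irf8*. The standard deviation (SD) expected of a difference between single spots was 0.14, from 297 probes spotted repeatedly. Both errors cover the measurement on the array and not the mice.

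The targeted gene was measured first. *Mapk14*, which encodes p38α, had levels of 2.34 and 2.31 on its brighter probe and 2.08 and 2.03 on its other probe, for p38α+/+ and the other array in that order. The differences of -0.037 and -0.051 were within the scanner error. The sources used here do not name the deleted exons, so the probes may lie outside them and may not bear on the label. The study assessed the deletion in DNA of peripheral blood cells, which is not analysed here. The array is therefore called the array labelled p38αΔ/Δ throughout.

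Of the 10 GTPase genes, 6 were lower and 4 were higher on the array labelled p38αΔ/Δ, by their brightest probe. Of all 17209 genes measured, 52.3% were lower and 47.7% higher. At least 1.5-fold lower were 4 members, *Gbp2*, *Gbp3*, *Gbp6* and *Irgm2*, compared with 16.1% of all genes, and 1 member, *Gbp5*, was at least 1.5-fold higher, compared with 14.2% of all genes. Under a model-based background correction (normexp), 1 of the 4 lower members, *Irgm2*, passed 1.5-fold, whereas *Gbp2* (-0.58), *Gbp3* (-0.51) and *Gbp6* (-0.19) did not. The share of all genes past 1.5-fold was not counted under normexp, so 16.1% does not apply there. No member (0 of 10) reached 2-fold in either direction. Of all genes, 7.64% were at least 2-fold lower and 5.96% higher by that much, so for 10 genes this count is near the overall share. With the dimmer probes of the members that have 2 measured probes, *Iigp1* and *Gbp6* were at least 2-fold lower. The median difference was -0.27 over the members and -0.031 over all genes, whose middle part between the quartiles ran from -0.38 to 0.34. The 6 Gbp genes had a median of -0.42 and the 4 Irg genes a median of 0.014. With the dimmer probes of the members that have 2 measured probes, these medians were -0.42 and -0.66, so the order of the families depends on the probes.

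**Figure D2:**
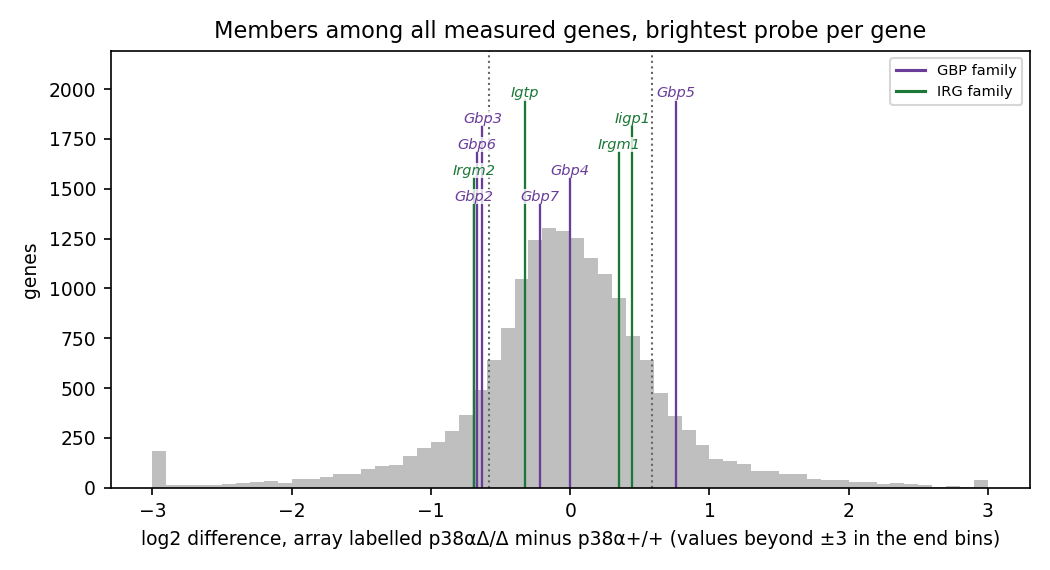
Log2 difference between the arrays for all 17209 measured genes (grey histogram, number of genes per bin of 0.1) with the 10 members drawn as lines, GBPs in purple and IRGs in green; dotted lines mark 1.5-fold. *Gbp2*, *Irgm2*, *Gbp6* and *Gbp3* lie together between -0.69 and -0.63 and *Gbp5* lies at 0.76, while 5 members lie between the dotted lines.

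The same was counted by probe. Of the 15 member probes, 14 cleared background on 1 array or both. Of these, 9 were lower and 5 higher on the array labelled p38αΔ/Δ, compared with 49.5% lower among all probes measured. At least 1.5-fold lower were 7 of the 14, compared with 17.1% of the 40437 probes measured in all, and 1 was at least 1.5-fold higher, compared with 18.4%. Probes of the same gene share their target and are not replicates.

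**Figure D3:**
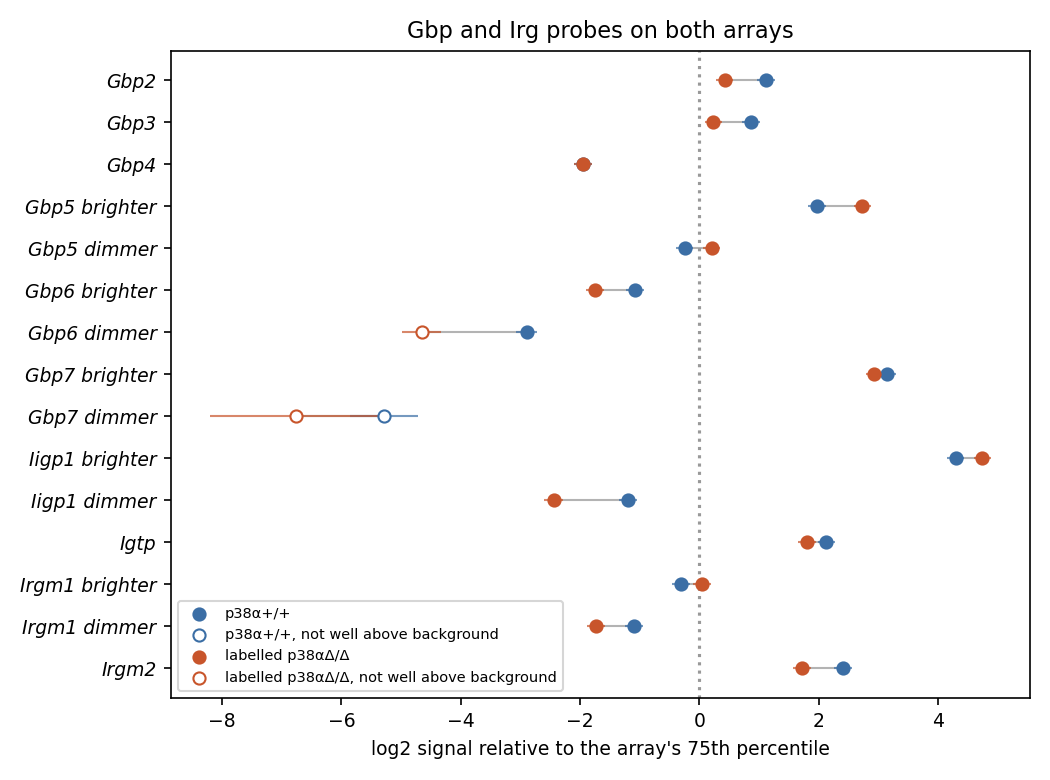
Log2 level of each of the 15 member probes relative to the array's 75th percentile, for p38α+/+ (blue) and the array labelled p38αΔ/Δ (orange); bars are the scanner error and open points were not well above background. The paired probes of *Iigp1* and of *Irgm1* moved in opposite directions, and those of *Gbp5* and *Gbp6* in the same direction.

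Among the GBPs, those of chromosome 3 are described first. Coordinates of probes are those of the array design, build mm9. *Gbp2*, one of the GBPs found on parasite vacuoles, was measured by 1 probe (chr3:142300719-142300778), with a level of 1.12 for p38α+/+ and of 0.43 on the array labelled p38αΔ/Δ. The difference of -0.69 (1.61-fold lower) exceeded the scanner error of 0.20. Only 13.0% of all genes measured had as low a difference.

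*Gbp3* had levels of 0.87 and 0.24 (chr3:142236032-142236091), a difference of -0.63, or 1.55-fold lower. It was thus lower by an amount close to that of *Gbp2*, and the 2 differences were within the scanner error of each other. *Gbp7*, which is known for delivering the cell's oxidase and autophagy proteins to bacteria, had levels of 3.16 and 2.94 on its brighter probe (chr3:142209379-142209438). Its difference of -0.22 was near the scanner error of 0.20 and amounted to 1.16-fold. On neither array was the other *Gbp7* probe well above background, and no fold is given for it.

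*Gbp5*, which promotes assembly of the inflammasome, went the other way. It was measured by 2 probes. The brighter probe, designed to a transcript record other than the RefSeq one, had levels of 1.98 and 2.73, a difference of 0.76, or 1.69-fold higher. The dimmer probe, designed to the RefSeq transcript, had levels of -0.25 and 0.21, a difference of 0.45, or 1.37-fold higher. Both probes were higher on the array labelled p38αΔ/Δ, by more than the scanner error. *Gbp5* thus lay above 90.3% of all genes in its difference, at the opposite side from *Gbp2* and *Gbp3* of the same cluster.

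In mm9 order along chromosome 3 the probes used for the genes ran *Gbp5*, *Gbp7*, *Gbp3*, *Gbp2b* and *Gbp2*, so that *Gbp5*, the higher one, stood at the end of the row. *Gbp2b*, formerly called *Gbp1*, was measured by 2 dim probes that disagreed. The first was well above background only for p38α+/+, with levels of -3.67 and -5.42. Its difference was -1.76, with a scanner error of 0.58. The second was so only on the array labelled p38αΔ/Δ, with levels of -5.20 and -4.08. Its difference was 1.12, with a scanner error of 0.66. No direction is given for *Gbp2b*.

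The remaining GBPs lie on chromosome 5. *Gbp4* had levels of -1.95 and -1.95 (chr5:105544852-105544911), and its difference of 0.00069 was the smallest among the members. Its scanner error of 0.21 spans changes of about 1.16-fold in either direction, so smaller changes were not detectable. *Gbp6* was lower on both of its probes. The brighter one (chr5:105702128-105702187), which is also designed to a transcript of *Gbp10*, had levels of -1.08 and -1.75, a difference of -0.67, or 1.59-fold lower. The dimmer one (chr5:105700056-105700115) had levels of -2.90 and -4.65, or 3.38-fold lower. It did not stand well above background on the array labelled p38αΔ/Δ, so this fold is an uncertain estimate and not a bound.

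Other Gbp genes of the same cluster did not move together. *Gbp10* had its own probe, with levels of 0.58 and 1.26, a difference of 0.69, or 1.61-fold higher, which is opposite to the *Gbp6* probe that its transcript record shares. *Gbp11* was lower by 0.53, with levels of -0.60 and -1.13. *Gbp8* (-0.26) and *Gbp9* (-0.026) differed by about the scanner error or less. GBP genes are close paralogs, and a probe can bind the RNA of more than 1 of them.

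**Figure D4:**
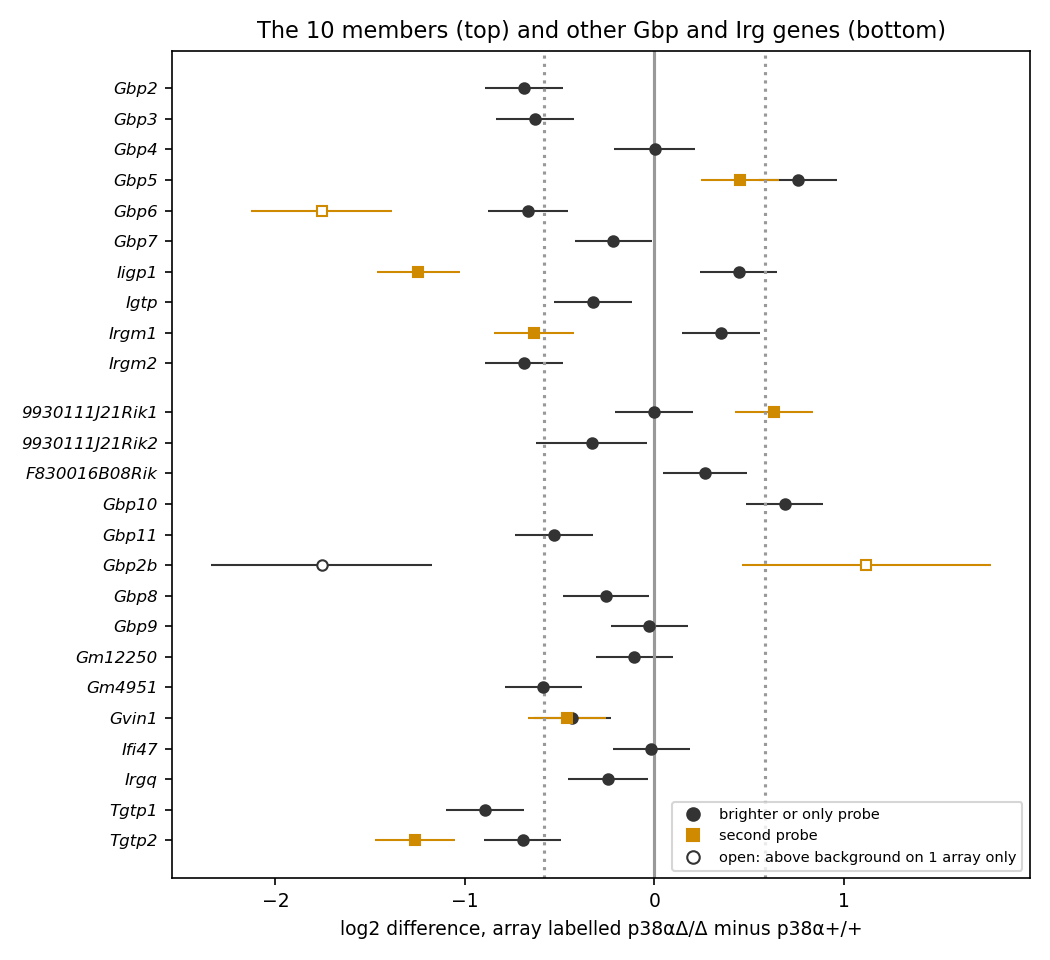
Log2 difference between the arrays for each probe of the 10 members (top) and of the other Gbp and Irg genes measured (bottom); bars are the scanner error of the difference, squares are second probes, open symbols were above background on 1 array and dotted lines mark 1.5-fold. Most points lie left of 0; clearly to the right are both *Gbp5* probes, *Gbp10*, *F830016B08Rik*, the brighter probes of *Iigp1* and *Irgm1*, and the second probes of *Gbp2b* and *9930111J21Rik1*.

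Among the IRGs, the regulators of chromosome 11 are described first. *Irgm2* had levels of 2.41 and 1.72 (chr11:58036093-58036152), a difference of -0.69, or 1.61-fold lower. *Igtp*, its neighbour, was the one member spotted 10 times on each array, and its levels ran from 1.98 to 2.20 with a median of 2.13 for p38α+/+ and from 1.62 to 1.95 with a median of 1.80 on the array labelled p38αΔ/Δ. The spots of the 2 arrays did not overlap.

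Matched by spot, *Igtp* differed by -0.32 ± 0.079 (SD, n = 10 spots of 1 probe), and all 10 spots were lower, by values from -0.42 to -0.16 (1.25-fold on average). The spots measure the same RNA, so this is the precision of the array and not of the genotype. It made *Igtp* (chr11:58020927-58020986) the member measured most precisely. *Irgm2* and *Igtp* were both lower, as were 52.3% of all genes measured, and the difference of *Irgm2* was the larger. Whether the run of 55 bases shared by their promoter windows bears on this was not tested.

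*Irgm1*, the regulator whose loss is known to disturb HSC quiescence, gave opposite results on its 2 probes. Both are designed to the same RefSeq transcript and start 563 bases apart, and the first 30 of their 60 bases are shown so that the 2 readings can be traced.
Irgm1 brighter probe, chr11:48679069-48679128, minus strand, mm9: gcattgttccactgagggacagggacaagt
Irgm1 dimmer probe, chr11:48679632-48679691, minus strand, mm9: agagaatagccaacgagtccttgaagaatt
The brighter probe, nearer to the transcript's end, had levels of -0.30 and 0.047, a difference of 0.35, or 1.28-fold higher. The dimmer probe had levels of -1.10 and -1.73, a difference of -0.64, or 1.55-fold lower. Each difference exceeded its scanner error, so the direction of *Irgm1* depends on which probe is read.

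*Iigp1*, the effector IRG of chromosome 18, also gave opposite results. Its brighter probe (chr18:60551352-60551411) had levels of 4.30 and 4.74, a difference of 0.45, or 1.36-fold higher. Its dimmer probe (chr18:60550839-60550898), designed to the same transcript and 513 bases away, had levels of -1.19 and -2.44, a difference of -1.25, or 2.37-fold lower. The brighter probe shared a stretch of 14 bases with 78 of the 32851 RefSeq promoter windows and with 15 probes of other names, compared with 0 to 27 windows and 0 to 10 probes for the other member probes. How much of its signal comes from other RNAs was not tested. The dimmer probe differed from the probe of the paralog *Iigp1b* at 5 of 60 bases, and on neither array was the *Iigp1b* probe itself well above background.

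Without *Iigp1*, 6 of 9 members were lower, with a median of -0.32. With its dimmer probe in its place, the median over the 10 members was -0.48.

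The other Gbp and Irg genes with a named probe were taken as the nearest relatives. Of the 16 listed, 15 were measured; *Irgc1*, known from testis, did not clear background, nor did *Iigp1b*, which was not on the list. Of the 15, 13 were lower and 2 higher on the array labelled p38αΔ/Δ, with 4 at least 1.5-fold lower, 1 at least 1.5-fold higher and a median of -0.26; of all genes, 52.3% were lower, and 16.1% and 14.2% passed 1.5-fold in the lower and higher direction. *Gbp2b* and *9930111J21Rik1* count among the lower ones by their brighter probes alone, and *9930111J21Rik1*, *Ifi47* and *Gbp9* differed by far less than the scanner error.

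*Tgtp1* and *Tgtp2*, which encode the effector Irgb6 as near-identical copies, were both lower. *Tgtp2* had levels of 4.14 and 3.44 on its brighter probe, a difference of -0.70, and -0.79 and -2.05 on its dimmer probe, a difference of -1.26. *Tgtp1* had levels of 0.91 and 0.016, a difference of -0.89. The 3 probes were thus between 1.62-fold and 2.40-fold lower, but they may bind the same RNAs and do not count as separate results.

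*Ifi47*, which encodes the effector Irgd, had levels of 3.37 and 3.35, and its difference of -0.016 was far within the scanner error. *Gm12250*, which encodes the effector Irgb10, differed by -0.11, also within it. These 4 effector genes besides *Iigp1* therefore ranged from no detectable difference in *Ifi47* to 2.40-fold lower on the dimmer *Tgtp2* probe.

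*Gm4951*, an IRG gene of chromosome 18, had levels of 0.88 and 0.29 and differed by -0.59. *F830016B08Rik*, from the same chromosome, differed by 0.27. *Gvin1*, a very large interferon-inducible GTPase, was lower on both of its probes, by -0.43 and -0.46, and *Irgq* by -0.24. The remaining pair of IRG loci, *9930111J21Rik1* and *9930111J21Rik2*, differed by -0.0023 and -0.33, and the second probe of the former by 0.63. Of the 8 promoter windows given for these other genes, 4 held an ISRE match and 3 a GAS match. The ISRE matches were those of *Gbp2b*, *Gm12250*, *Tgtp1* and *Tgtp2*.

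The genes that act before the GTPases are given next, from the ligand to the factors that bind the motifs. For the counts in this and the later lists, 52.3% of all genes measured were lower and 47.7% higher. Of 12 interferon genes with a named probe, 4 were measured, whereas *Ifng* and *Ifnb1* cleared background on neither array. The 4 measured ranged from 0.053 (*Ifna14*) to 0.37 (*Ifna1*), with a median of 0.19. The Ifna genes are near-identical copies, and these values are uncertain for that reason.

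All 7 receptor chain and Jak kinase genes were measured, 4 lower and 3 higher, with a median of -0.075. *Tyk2*, the kinase of the type I receptor, had levels of -2.16 and -2.96 and differed by -0.80. *Ifngr2*, the signaling chain of the interferon γ receptor, had levels of 0.57 and 1.14 and differed by 0.57.

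Of 12 Stat, Irf and related factors, 6 were lower and 6 higher, with a median of -0.082. *Irf7* and *Irf9* passed 1.5-fold in the lower direction, compared with 16.1% of all genes, and *Irf8* in the higher, compared with 14.2%. *Irf7*, the amplifier of type I interferon production, had the largest fold of the list, with levels of -0.59 and -3.95 and a difference of -3.36. *Irf8*, a factor of myeloid and lymphoid cells, had levels of -4.11 and -2.67 and differed by 1.43. *Irf9* had levels of 1.92 and 1.29 and differed by -0.62, and its partner *Stat2* had levels of 1.09 and 0.89 and differed by -0.20.

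*Irf1*, which binds the ISRE and is itself induced through GAS, had 2 probes of opposite sign. Its brighter probe had levels of 3.29 and 2.97, a difference of -0.32, and its dimmer probe, designed to another transcript record, had levels of 0.66 and 1.82, a difference of 1.16. Disagreement between probes of a gene was thus not confined to the GTPases.

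*Nlrc5*, the activator of MHC class I genes, differed by 0.48 on its brighter probe (2.05 and 2.53) and by 0.12 on the other. *Ciita*, the activator of MHC class II genes, differed by 0.32, *Irf5* by 0.23, *Irf3* by 0.092 and *Batf2* by 0.034. *Irf2*, which competes with *Irf1* for the ISRE, differed by -0.55. *Stat3*, which serves many cytokines, differed by -0.39 on its brighter probe and by -0.82 on the other.

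Of the negative regulators of interferon signaling, 10 of 11 were measured, 7 lower and 3 higher, with a median of -0.29. *Socs1*, the main brake on interferon γ signaling, had levels of -2.93 and -2.32 and differed by 0.60. *Pias4* had levels of -0.80 and -1.79 and differed by -0.99. *Usp18*, which acts at the type I receptor, had levels of -3.31 and -4.57, or 2.40-fold lower, with a scanner error of 0.43. It did not stand well above background on the array labelled p38αΔ/Δ, so this fold is an uncertain estimate.

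The genes that act together with the GTPases or after them were taken last. The Atg proteins of the LC3-lipidation system place IRGs and GBPs on vacuoles, and 7 of these 10 genes were lower, with a median of -0.27. Their range ran from -1.42 in *Map1lc3a* (levels of -0.26 and -1.68) to 0.57 in *Gabarapl2* (-0.63 and -0.059). *Gbp2* and *Gbp5* carry a prenyl lipid anchor. Of 6 genes for attaching such an anchor or for processing the protein afterwards, 1 was lower. The median was 0.060, from -0.21 in *Zmpste24* to 0.32 in *Pggt1b*.

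Of the 9 inflammasome and pyroptosis genes, 6 were lower and 3 higher, with a median of -0.25. *Nlrc4*, a sensor of bacterial flagellin, had levels of -2.70 and -3.88 and differed by -1.18. *Nlrp3*, a sensor of cell damage, had levels of -2.19 and -1.28 and differed by 0.91, and its second probe cleared background on neither array.

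Interferon-inducible GTPases are also expressed in mature blood cells, so marker genes of other cell types are given beside the members. Of all genes measured, 52.3% were lower, and 5.96% were at least 2-fold higher. All 18 HSC markers were measured, and 17 were lower on the array labelled p38αΔ/Δ, with a median of -0.51 and a log2 summed level of 8.13 and 7.77. All 10 neutrophil markers were measured, and 7 were at least 2-fold higher and 3 lower, with a median of 1.40 and a summed level of 2.83 and 4.45. The 3 lower ones were *Elane* (2.67-fold), *Cebpe* (1.74-fold) and *Ly6g* (at least 4.71-fold). All 10 B and plasma cell markers were measured, and 9 were higher, with a median of 0.69 and a summed level of 3.23 and 4.61. A summed level follows its brightest probes. *Jchain* went from 0.18 to 3.93, and *S100a9* among the neutrophil markers from 1.91 to 3.92.

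Of 9 named monocyte and macrophage markers, 7 were measured, 4 lower and 3 higher, with a median of -0.031. Their summed level was 4.93 and 5.12, most of which was *Csf1r* (4.85 and 5.07). Of 12 T and NK cell markers, 9 were measured, with a median of 0.073 and a summed level of 4.47 and 4.65, whereas *Cd3d*, *Cd3g* and *Ncr1* cleared background on neither array. *Cd3e*, also defining for T cells, was measured on both and was 2.02-fold higher, *Ccl5* and *Lck* were 2.10-fold and 1.54-fold higher, and *Zap70* was 21.6-fold lower. Of 10 dendritic cell markers, 8 were measured, with a median of 0.19 and a summed level of 5.29 and 5.38. Erythroid, megakaryocyte, and endothelial and stromal markers had medians of 0.46, 0.23 and -0.089. The part of other cells in the levels of the GTPases was not tested, and in bulk RNA fewer cells of a type cannot be told apart from less RNA per cell.

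The differences of the members were compared over 13 ways of processing the arrays. *Gbp2*, *Gbp3*, *Gbp6*, *Gbp7*, *Igtp* and *Irgm2* were lower under all 13, and *Gbp5* was higher under all 13. *Irgm2* ranged from -0.69 to -0.63, *Igtp* from -0.34 to -0.26, *Gbp2* from -0.69 to -0.58 and *Gbp3* from -0.63 to -0.51. These members have 1 probe each, so the settings that exchange probes could not move them. The filter on both arrays, no filter and no floor could not move any member, because the brightest probes cleared background on both arrays. Median centring, the deposited values and outlier spots kept shifted all members by the same small amounts, with *Gbp2* between -0.691 and -0.686. The agreement under these settings is therefore not separate support. *Gbp5* ranged from 0.45 to 0.83. *Gbp7* ranged from -0.47, where the mean took in its probe that cleared background on neither array, to -0.13. *Gbp6* ranged from -1.76, the value of its dimmer probe, to -0.19 with the normexp background correction of its brighter probe. *Iigp1* ranged from -1.25 to 0.57 and *Irgm1* from -0.64 to 0.36, with a negative value only where their dimmer probes entered. *Gbp4* stayed between -0.063 and 0.092.

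**Figure D5:**
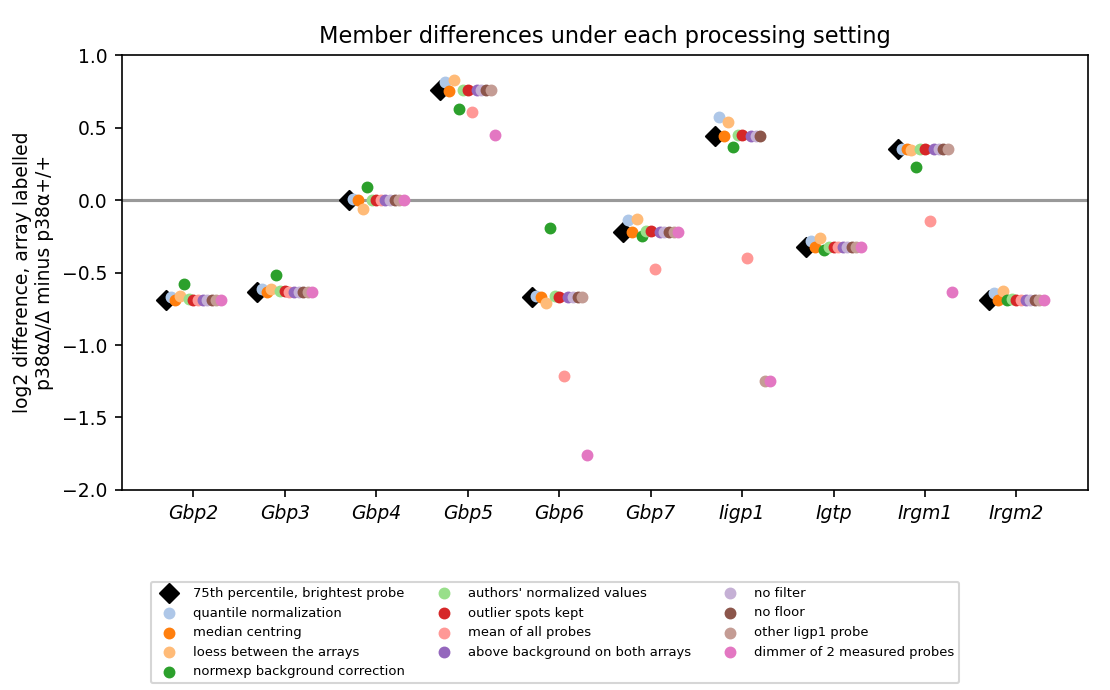
Log2 difference between the arrays for each member under 13 processing settings (points, named in the key; black diamonds are the values given above). *Irgm2*, *Igtp*, *Gbp2* and *Gbp3* lie below 0 throughout and have 1 probe each, whereas the points of *Iigp1* and *Irgm1* lie on both sides of 0.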

How the data were processed

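The authors deposited 1 scanner table per array, whose intensity values the scanner software (Agilent Feature Extraction 11.5.1.1, per the submitters' processing notes) had corrected for background but not normalized between arrays, and a second table with log2 values of 35795 probes normalized by a constant per array, 7.16 and 6.84, which served as an alternative. Control spots and outlier spots were left out (55662 of 55681 probes kept), and the log2 intensity, averaged over spots, was taken relative to the 75th percentile of its array (7.16 and 6.85). Names came from the files and a table of GRCm38.p6 (31778 probes, 57.1%, 22555 genes). The brightest probe stood for a gene, and genes that cleared background on 1 array or both were kept. Well above background were 67.9% and 69.1% of probes, and 0 spots were saturated. The number of arrays limits the precision, and no test was made. A gene's signal that did not clear background was raised only to the lowest level among probes that did (-5.96 and -6.02). Values above that floor stayed as measured, so folds with 1 side not above background are uncertain estimates and not bounds.

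Named were all members and relatives with every probe, *Mapk14*, the Stat and Irf list, and of each other pathway list the largest difference in each direction among genes above background on both arrays; *Usp18*, *Ifng*, *Ifnb1* and the marker genes were named after their values were seen. 1 gene of the Stat and Irf list is not reported here and was left out of its counts. The members and lists were chosen with earlier results of these data known. Promoters were RefSeq sequence of GRCm38.p6. The alternatives were quantile normalization, median centring, loess normalization of the pair (span 0.3), background correction by normexp (offset 50), the deposited normalized values, outlier spots kept, the mean of a gene's probes, a filter on both arrays, no filter and no floor; 2 on the choice of probe were added after seeing the data. The calculations were tested on simulated data. Python 3.11.15, numpy 2.4.6, pandas 2.3.3, R 4.3.3 and limma 3.58.1 were used.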

Additional observations from a re-analysis of the deposited data

How the results depend on the processing

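Over 12 other ways of processing, of which the 2 on single probes were added after seeing the data, the member median stayed below 0, and 6 to 8 of the 10 members were lower. The filter on both arrays, no filter and no floor could not change the members, whose brightest probes cleared background on both arrays. The median moved from -0.27 to -0.44 with the mean of all probes of a gene, to -0.48 with the other *Iigp1* probe, and to -0.63 with the dimmer probe of the members that have 2 measured probes (*Gbp5*, *Gbp6*, *Iigp1* and *Irgm1*; the dimmer *Gbp7* probe was not measured). The 4 members at least 1.5-fold lower became 1 under normexp background correction. There the median over all genes was 0.049, compared with -0.031 at first. Shares of all genes past 1.5-fold or 2-fold were not counted under the other settings. The 1 member at least 1.5-fold higher became 0 with the dimmer probes. No member was at least 2-fold lower at first, and 1 was with the mean of all probes, 1 with the other *Iigp1* probe and 2 with the dimmer probes. The changes with other probes come from the probes that enter. With the mean of all probes, these include the dimmer *Gbp7* probe, which cleared background on neither array. The cause of the change under normexp was not tested. *Mapk14* stayed between -0.093 and 0.032. No paired analysis was possible because there was 1 array per genotype, and for the same reason no replicate could be left out. The dimmer probes of *Gbp6*, *Gbp7* and *Gbp2b* were not well above background on at least 1 array, so their differences are uncertain or are not given.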
